A study of Arabidopsis thaliana with 6 samples.

Results

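*ARR5* (AT3G48100), *ARR7* (AT1G19050), *CYCD3;1* (AT4G34160), *CYCD3;3* (AT3G50070) and *ANT* (AT4G37750) are *Arabidopsis* genes of cytokinin response and cell division, and they account for 5 of the 22746 probe sets tested here. All 5 were selected from the study's list of genes called higher in *fbs1-1*, so the genotype contrast itself chose them. Their differences between genotypes are therefore given as a description, with no test. The study's list was made by rank products, which rank the differences between single arrays, so the choice also bears on their size on each array. How the 5 genes varied among arrays of 1 genotype was not what they were chosen on, but it is not independent of the choice. RNA of pooled whole seedlings was measured on 6 Affymetrix ATH1 arrays, 3 of *fbs1-1* and 3 of WT, in the No-0 background by the labels. *fbs1-1* has a transposon within intron 1 of *FBS1*, an F-box gene induced by stress, and it is 1 insertion line, while WT plants carry no insertion there. Plants of both genotypes were 12 days old, and had been kept at 24 °C for 5 days and then at 10 °C for 7 days. None of the 6 arrays holds seedlings left at 24 °C throughout, so both genotypes were chilled and a response to cold cannot be read from these arrays.

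Cytokinins are plant hormones that promote cell division in the shoot. Receptor histidine kinases pass a phosphate through histidine phosphotransfer proteins (AHPs) to response regulators in the nucleus. Type-B response regulators switch on target genes, and among their fastest targets are the type-A response regulators, which dampen the signal in turn. D-type cyclins of the D3 kind link cytokinin to the cell cycle by activating the kinases that take cells from G1 into S phase. *ANT* encodes an AP2-type transcription factor that prolongs cell division in young organs and is associated with continued *CYCD3* expression.

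Values are the deposited log2 intensities, on which a difference of 1 is a doubling. Values under 2, called the low end here, made up 40.1% to 40.7% of each array, and array medians lay between 2.63 and 2.72. The 5 genes lay above the low end on all 6 arrays, from 2.57 for AT4G34160 on WT array 1 to 6.42 for *ARR7* on *fbs1-1* array 3. No probe set was tied to *FBS1*, so its own level, which would check the genotype labels, is not reported. The labels of the WT arrays also carry the name Nd0 beside the stated No-0 background, and differences between the lines other than the insertion cannot be told apart from the insertion. In RNA of whole seedlings, more cells of a type and more RNA per cell cannot be told apart either.

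*ARR5*, a type-A response regulator widely used as a reporter of cytokinin signaling, had the largest difference of the 5 genes. It measured 4.28, 4.40 and 4.68 on *fbs1-1* arrays 1, 2 and 3, against 3.05, 3.48 and 3.67 on WT arrays 1, 2 and 3. Every *fbs1-1* array lay above every WT array, and 0.62 separated the lowest *fbs1-1* value from the highest WT value. The means were 4.45 ± 0.21 in *fbs1-1* and 3.40 ± 0.31 in WT (SD, n = 3 each), a difference of 1.06 with a standard error of 0.17, or 2.08-fold. Across all tested probe sets, 0.532% had a larger difference in this direction.

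*ARR7*, another type-A response regulator and a negative regulator of cytokinin signaling in the shoot meristem, had a smaller difference. Its values were 5.83, 5.88 and 6.42 on the *fbs1-1* arrays and 4.85, 5.45 and 5.29 on the WT arrays. The genotypes did not overlap, but the gap between them, 0.38, was narrower than the range within *fbs1-1*, where array 3 stood above arrays 1 and 2. *ARR7* averaged 6.04 ± 0.33 in *fbs1-1* and 5.20 ± 0.31 in WT (SD, n = 3 each), a difference of 0.84 with a standard error of 0.20, or 1.79-fold.

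*CYCD3;1*, the D-type cyclin best known as a cytokinin-inducible gene, was the least even of the 5 among arrays. It measured 4.29, 4.28 and 4.53 on the *fbs1-1* arrays, against 2.57, 3.93 and 3.61 on the WT arrays. WT array 1 lay far below WT arrays 2 and 3, so that the WT values spanned 1.36, more than the difference between genotypes. The means were 4.37 ± 0.14 in *fbs1-1* and 3.37 ± 0.71 in WT (SD, n = 3 each), a difference of 0.99 with a standard error of 0.30, or 1.99-fold. With WT array 1 left out the difference was 0.59, and the gap between the lowest *fbs1-1* array and the highest WT array was 0.34. Only 0.756% of the tested probe sets had a larger pooled SD.

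*CYCD3;3*, a second member of the same cyclin subfamily, had nearly the same mean difference with far less spread. Its values were 4.12, 4.06 and 4.27 on the *fbs1-1* arrays and 3.21, 3.18 and 3.16 on the WT arrays. The WT arrays lay within 0.047 of each other, and the gap between the genotypes, 0.85, was the widest of the 5 genes. It averaged 4.15 ± 0.11 in *fbs1-1* and 3.19 ± 0.02 in WT (SD, n = 3 each), a difference of 0.96 with a standard error of 0.09, or 1.95-fold. The difference was 12.5 times the pooled SD, against 1.94 times for *CYCD3;1*, and 86.7% of the tested probe sets had a larger pooled SD.

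*ANT* had the smallest difference of the 5 genes and the most even *fbs1-1* values. It measured 4.65, 4.56 and 4.62 on the *fbs1-1* arrays, against 3.67, 3.87 and 3.97 on the WT arrays. The *fbs1-1* arrays spanned 0.084, and the lowest of them lay 0.59 above the highest WT array. *ANT* averaged 4.61 ± 0.04 in *fbs1-1* and 3.84 ± 0.15 in WT (SD, n = 3 each), a difference of 0.77 with a standard error of 0.11, or 1.71-fold. A larger difference in this direction was found at 1.17% of the tested probe sets.

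**Figure D1:**
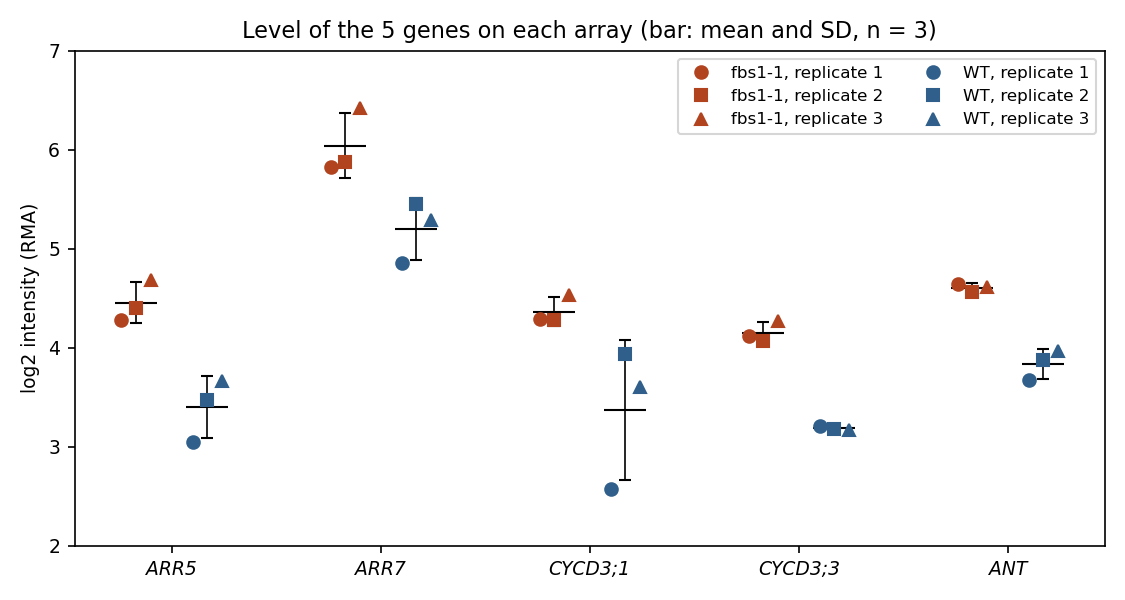
Level of the 5 genes on each array, as deposited RMA log2 intensity (vertical axis), with *fbs1-1* in red left of WT in blue, the replicate number as symbol, and the mean and SD of 3 arrays as bars. For each gene all *fbs1-1* arrays lie above all WT arrays, and the lowest value shown is 2.57, on WT array 1.

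Thus all 5 genes were higher in *fbs1-1* with no overlap between genotypes, which held for 10.8% of all tested probe sets in this direction. Their median difference was 0.96, against 0.01 over all tested probe sets. limma, at a Benjamini-Hochberg adjusted p under 0.05, called *ARR5*, AT3G50070 and *ANT*, that is 3 of 5, and it called 1.68% of all probe sets higher and 1.57% lower in *fbs1-1*. Rank products, the method behind the study's list, called 5 of 5 in the implementation used here, against 1.15% of all probe sets called higher. These counts follow from the choice of the genes and are not evidence about them. Inside the threshold of 0.05, *ANT* came closest to it at a percentage of false prediction of 0.0381, followed by *ARR7* at 0.0325, AT4G34160 at 0.0186, AT3G50070 at 0.0129 and *ARR5* at 0.00735. Outside it, the nearest type-A response regulator with a probe set was *ARR15* at 0.417. The values of the 5 genes come from the method and the arrays that chose them. They too are only a description, and so is their distance from *ARR15*, which was not chosen this way.

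The order of the arrays within a genotype was not itself a ground of the choice, but it is not independent of it. Rank products rank the difference of each pair of arrays, so a low WT array or a high *fbs1-1* array favors a gene. The shares of all tested probe sets beside the counts below are therefore a description. Both response regulators and both cyclins were highest on *fbs1-1* array 3, that is 4 of 5 genes, and 33.5% of all tested probe sets had their highest *fbs1-1* value there. All but the cyclin AT3G50070 were lowest on WT array 1, again 4 of 5, against 37.8% of all tested probe sets. The median deviation of the 5 genes from the genotype mean was −0.35 on WT array 1 and 0.17 on *fbs1-1* array 3, while the median over all tested probe sets was 0.01 on both.

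As a description, the deviations from the genotype mean were positively correlated in 9 of 10 gene pairs over the 6 arrays, with a median Pearson's r of 0.68. The deviations sum to 0 within each genotype, which leaves 4 free values, and all pairs share the same arrays and RNA. *ARR5* and *ARR7* had the highest r, 0.88, and their deviations and those of *CYCD3;1* had the same sign as each other on 6 of 6 arrays. The cyclins had an r of 0.02 with each other, and WT array 1, on which AT4G34160 was lowest, was the highest WT array for AT3G50070. The lowest r, −0.10, was that of AT3G50070 and *ANT*. With the values of WT array 1 dropped from these deviations, the median r was 0.53, and 10 of 10 pairs were positive. The WT mean they were taken from still included WT array 1. These correlations are therefore not free of that array, and the deviations were not centred anew without it.

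**Figure D2:**
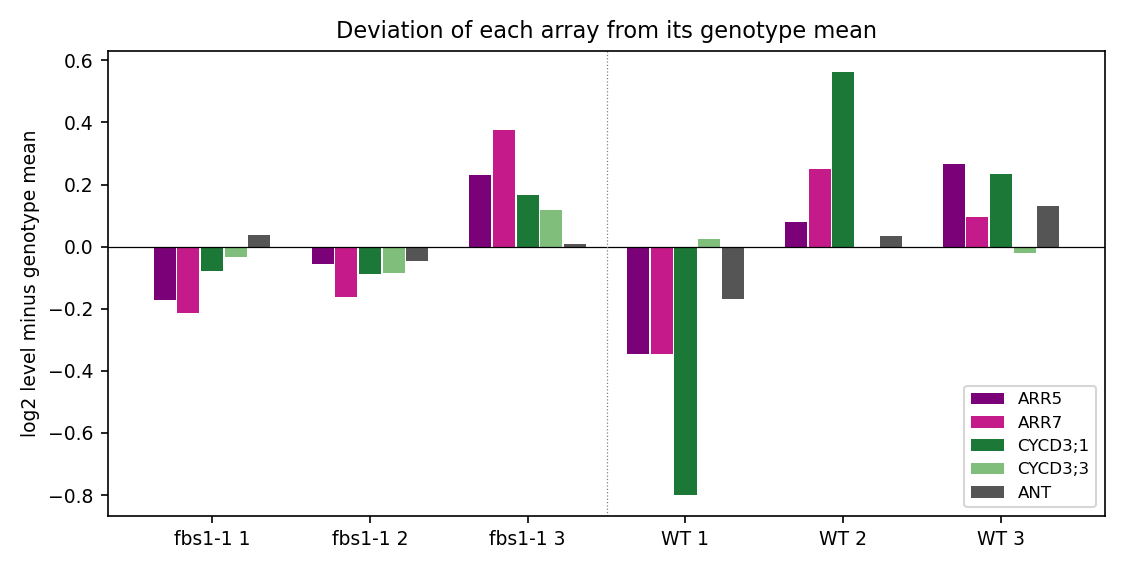
Deviation of each array from the mean of its genotype in log2 units (vertical axis) for the 5 genes, with the 3 *fbs1-1* arrays left of the 3 WT arrays. The deepest bar is *CYCD3;1* on WT array 1 at −0.80, and all 5 genes lie above their mean on *fbs1-1* array 3.

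The array numbers in the labels fall into 2 runs, with *fbs1-1* array 1 and WT array 1 numbered 45 and 43 and the other arrays numbered from 59 to 62. What separates these runs is not stated. The cyclin AT4G34160 differed most between them. Its difference was 1.71 in the first run, which has 1 array of each genotype, and 0.63 in the second, which has 2 of each. Only 0.558% of the tested probe sets had a larger change between the runs, and this cyclin was 3.28-fold higher in *fbs1-1* in the first and 1.55-fold higher in the second. *ARR5* differed by 1.23 and 0.97, *ARR7* by 0.97 and 0.78, and *ANT* by 0.98 and 0.67. AT3G50070 went the other way, with 0.91 in the first run and 0.99 in the second. All 5 genes were higher in *fbs1-1* in both runs. For each of them every *fbs1-1* array lay above every WT array, so neither run could have shown the other direction. Only the size of the difference could vary between the runs. The part of the array run in the spread of AT4G34160 was not tested.

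**Figure D3:**
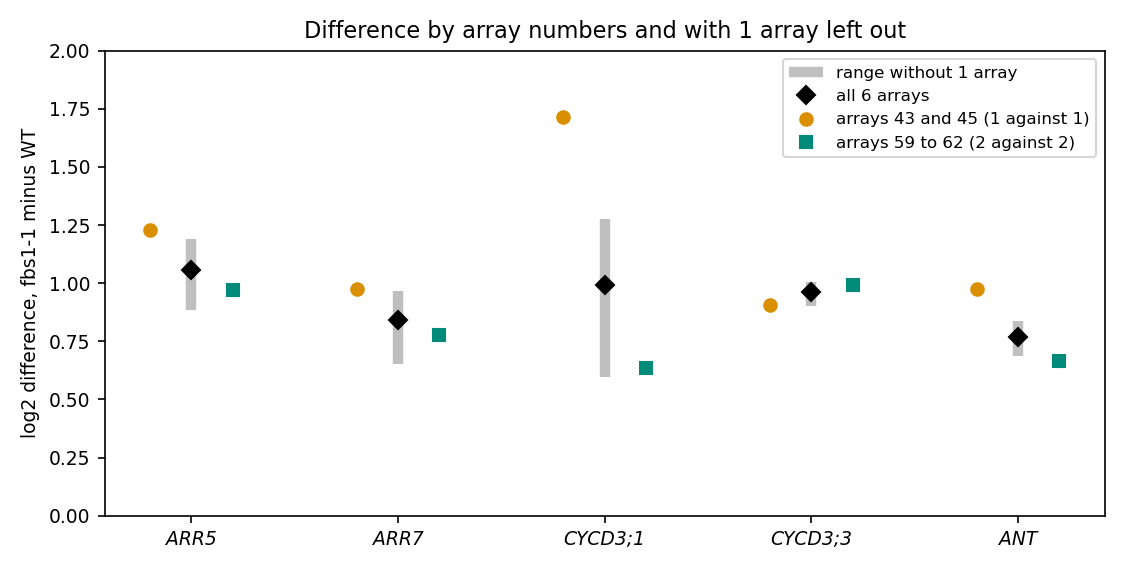
Log2 difference, *fbs1-1* minus WT (vertical axis), for the 5 genes over all 6 arrays (diamonds), in the first run of arrays (circles, 1 against 1) and in the second (squares, 2 against 2), with the range when 1 array is left out as a grey bar. *CYCD3;1* has the widest grey bar, 0.59 to 1.28, and *CYCD3;3* the narrowest, 0.90 to 1.01.

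Leaving out each array in turn kept every one of the 5 genes higher in *fbs1-1*. Because every *fbs1-1* array lay above every WT array, no such omission could have reversed the direction. Only the size of the difference could move. The difference ranged from 0.88 to 1.19 for *ARR5*, from 0.65 to 0.97 for *ARR7* and from 0.69 to 0.84 for *ANT*. The lowest value came without WT array 1 for *ARR5*, AT4G34160 and *ANT*, and without *fbs1-1* array 3 for *ARR7* and AT3G50070.

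To place the 5 genes in their pathway, 169 other genes of cytokinin signaling, the cell cycle and organ growth were listed, of which the platform annotation ties a probe set to 14. limma called 0 of the 14 higher and 0 lower, and rank products called 0. At an unadjusted p under 0.05, 3 of the 14 passed, against 14.7% of all tested probe sets in either direction. Their median difference was 0.11 and their range −0.22 to 0.62. No overlap between genotypes, which held for 19.7% of all tested probe sets in either direction, was found for 3 of the 14. A search of the annotation by gene name added 13 genes of the same processes, and limma and rank products each called 0 of these 27 genes, 3 of which passed at an unadjusted p under 0.05, and their median difference was 0.06 (8 of the 27 were at the low end on all arrays). None of the 14 is a D-type cyclin, a cytokinin receptor, a phosphotransfer protein or a hormone synthesis gene, so those steps are not described by this count.

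Among the other type-A response regulators, *ARR15*, a close paralog of *ARR7* that is also cytokinin-inducible, measured 3.13, 2.58 and 3.08 on the *fbs1-1* arrays and 2.47, 2.75 and 2.35 on the WT arrays. The genotypes overlapped, because *fbs1-1* array 2 lay below WT array 2, and the difference of 0.41 had a limma adjusted p of 0.308. *ARR16* measured 3.40, 3.09 and 3.12 in *fbs1-1* and 3.17, 2.86 and 2.77 in WT, also with overlap, and its difference of 0.27 had a limma adjusted p of 0.420. Neither gene passed the test. *UGT76C1* and *UGT76C2*, which glucosylate and so inactivate cytokinins, differed by −0.02 and 0.08. *ARR18*, a type-B response regulator, was at the low end on all arrays.

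*AUR1* and *AUR2*, closely related Aurora kinases of the mitotic spindle, had the largest differences among the 14. *AUR1* measured 3.69, 3.72 and 4.08 on the *fbs1-1* arrays against 3.05, 3.60 and 3.15 on the WT arrays. *AUR2* measured 3.54, 3.74 and 4.09 on the *fbs1-1* arrays against 2.92, 3.45 and 3.14 on the WT arrays. Both were separated between genotypes, both were lowest on WT array 1 and highest on *fbs1-1* array 3 like *ARR5* and *ARR7*, and neither was called by limma (differences 0.56 and 0.62, adjusted p 0.135 and 0.115). With the array run as a block the limma adjusted p of *AUR2* was 0.0287, so its call depends on that choice, and over its other alternatives the adjusted p ranged from 0.0510 to 0.346. How far the probe sets of these paralogs share signal was not tested.

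Other genes of cell division had smaller differences. *MCM7*, a subunit of the replicative helicase, had a difference of −0.22 (limma adjusted p = 0.374), and *SIM*, an inhibitor of cyclin-dependent kinases, one of 0.16 (adjusted p = 0.779). The histone H2B genes *HTB1*, *HTB2*, *HTB4* and *HTB11* differed by 0.17, 0.18, 0.01 and −0.08. Among growth regulators, *TCP15* differed by 0.21 and *ARL*, which acts in cell expansion of organs, by −0.05. *BBM*, an AP2-type relative of *ANT* known from embryos, was at the low end on all arrays.

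Some further genes of these processes have a probe set only because the study listed them as different between genotypes, so that, as for the 5 genes, their differences are a description. *CRF2*, a cytokinin response factor, measured 3.71, 3.46 and 4.25 on the *fbs1-1* arrays and 2.27, 3.13 and 3.12 on the WT arrays, a difference of 0.97. Like AT4G34160 it was lowest on WT array 1 by a wide margin. *AHP1*, a histidine phosphotransfer protein that carries the cytokinin signal, was lower in *fbs1-1*, with 2.81, 2.23 and 2.67 on the *fbs1-1* arrays, against 3.37, 3.37 and 3.23 on the WT arrays, a difference of −0.75.

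*MAD1* and *MAD2*, named for the spindle checkpoint, and *ATK3*, a kinesin of the spindle, were listed as higher in *fbs1-1*. *MAD1* measured 4.22, 3.66 and 4.24 on the *fbs1-1* arrays against 2.30, 2.41 and 2.63 on the WT arrays, and its difference of 1.59, or 3.02-fold, exceeded that of *ARR5*. *MAD2* measured 2.91, 3.39 and 2.89 in *fbs1-1* against 1.75, 2.39 and 2.39 in WT, a difference of 0.89. *ATK3* measured 3.89, 4.03 and 4.22 in *fbs1-1* against 2.78, 3.32 and 3.31 in WT, a difference of 0.91. A histone probe set shared by AT5G59690 and AT5G59970 was on the list of genes higher in WT, with 7.92, 7.86 and 7.67 on the *fbs1-1* arrays against 8.49, 8.66 and 8.51 on the WT arrays, a difference of −0.74. Genes used in dividing cells were thus found on both of the study's lists, but the WT side rests on this histone probe set alone. Like *MAD1* and *ATK3*, it was picked after the files had been seen. The share of such genes on each list was not counted.

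**Figure D4:**
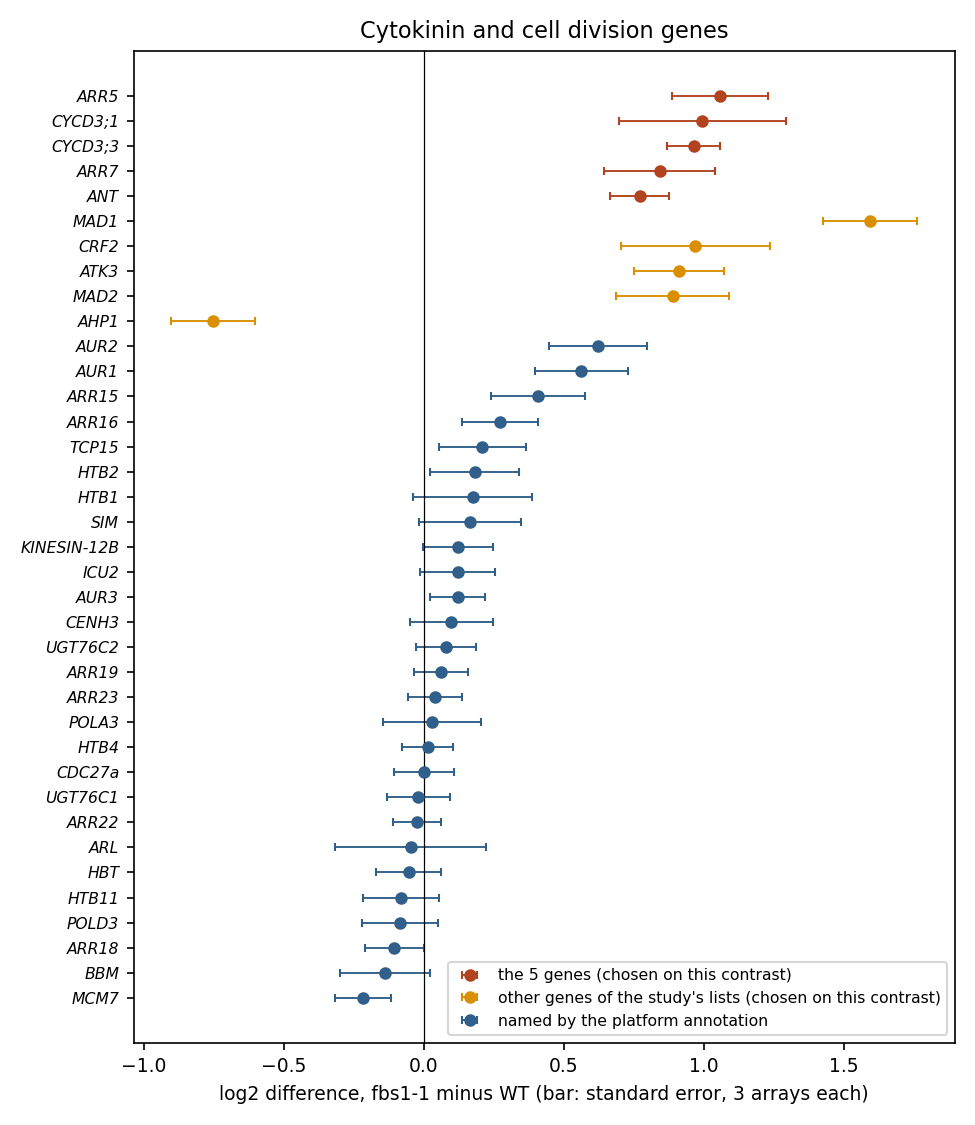
Log2 difference, *fbs1-1* minus WT (horizontal axis), with its standard error (bar, 3 arrays of each genotype), for the 5 genes in red, other genes on the study's lists in orange and genes named by the platform annotation in blue. Red and orange genes were chosen on this contrast, and the blue genes range from −0.22 (*MCM7*) to 0.62 (*AUR2*).

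Markers of plant parts were set beside these values, because the 5 genes are used mainly in dividing and young tissue. *CLV3*, which marks stem cells of the shoot meristem, was at the low end on all 6 arrays, with a difference of 0.02. It was the only 1 of 12 listed shoot meristem genes with a probe set, so the meristem is hardly covered. None of the 6 leaf marker genes listed at first had a probe set in the annotation. In their place, 9 leaf photosynthesis genes were taken from the search by gene name, which was added after the files had been seen. These had a median difference of −0.19, and limma and rank products each called 0 of 9. At an unadjusted p under 0.05, 1 of the 9 passed, against 14.7% of all tested probe sets. This was *PSAN*, a subunit of photosystem I, with a difference of −0.74 and a limma adjusted p of 0.0590. Its call depends on the settings, as the adjusted p was between 0.0288 and 0.0473 with either block, an intensity trend, the filter on dim probe sets or median centring, and between 0.0607 and 0.155 under the other alternatives. The summed linear intensity of the 9 genes, *PSAN* included, was 9096 to 10103 on the *fbs1-1* arrays and 10130 to 11304 on the WT arrays. These ranges nearly met, and 3 of the 9 genes had a positive difference. The sum was lowest on *fbs1-1* array 3 and highest on WT array 1, and it was not taken without *PSAN*. The root hair genes *EXPA7* and *EXPA18* differed by 0.23 and 0.24, with limma adjusted p of 0.377 and 0.494. *EXPA7* was the only 1 of 8 listed root marker genes with a probe set, and *EXPA18* came from the search by gene name. The part of tissue proportions in the differences of the 5 genes was not tested.

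To see which genes had the profiles most like theirs, each log2 profile over the 6 arrays was centred on its mean, and the root mean square difference to the profiles of 13436 probe sets of 1 annotated gene was taken. *ANT* had the closest neighbor, AT5G62140, at 0.033, followed by AT4G30450 at 0.047 and AT1G64880 at 0.068. For AT3G50070 the nearest were AT3G56160 at 0.077, AT2G16340 at 0.090 and AT2G15000 at 0.092. For AT4G34160 they were *MSRB9*, a methionine sulfoxide reductase, at 0.079, AT5G07030 at 0.12 and AT5G66230 at 0.15. These genes share the pattern of the member they are nearest to, including the low WT array 1 in the case of AT4G34160.

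For *ARR7* the nearest profiles were AT1G72230 at 0.090, AT5G06730 at 0.10 and AT5G53070 at 0.11, and for *ARR5* they were AT5G53070 at 0.11, AT4G01700 at 0.12 and *CCL* at 0.14. AT5G53070 was thus near both response regulators. The profiles nearest to the mean of the 5 genes were AT4G29030 at 0.071, AT4G01700 at 0.081, *ICDH* at 0.10, AT5G05960 at 0.11 and AT1G72230 at 0.11. Among the 5 genes themselves the closest pair was AT3G50070 and *ANT* at 0.15, then *ARR5* and *ARR7* at 0.17, and the farthest pair was that of the cyclins at 0.42. These distances include the difference between genotypes on which the 5 genes were chosen, and they rest on 6 arrays.

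Genes beside the 5 on the chromosome, in the gene order of assembly TAIR10.1, were looked at for comparison. Within 5 genes on either side, 16 neighbors had a probe set in the annotation, limma and rank products each called 0 of them (1.68% of all probe sets were called higher and 1.57% lower by limma), and their differences ranged from −0.18 to 0.45. At an unadjusted p under 0.05, 1 of the 16 passed, against 14.7% of all tested probe sets. No probe set was tied by the annotation to a neighbor of *ANT*. At *ARR7* the largest neighbor difference was 0.45 at AT1G19020 (limma adjusted p = 0.229), and at AT4G34160 it was 0.25 at AT4G34150 (adjusted p = 0.348).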

How the data were processed

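Per the labels and the study's methods, the authors hybridized total RNA of each sample to 1 ATH1 array and processed the arrays by RMA, a method that adjusts for background, brings arrays to a shared scale and gives 1 value per probe set. The deposited values are log2 intensities, and versions are not given in the sources used here. Arrays have no read depth, and their number limits the precision.

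From these values, 64 control probe sets of 22810 were left out and the other 22746 were fitted in limma 3.58.1 (R 4.3.3) with genotype as the only term, empirical Bayes moderation and Benjamini-Hochberg adjustment over all of them. Per the methods, each biological replicate was a harvest of pooled seedlings. Whether replicates were grown at separate times is not given in the sources used here, and p-values measure only the spread between these samples. Rank products were computed in Python 3.11.15 (numpy 2.4.6, pandas 2.3.3) over the 9 pairs of arrays with 100 permutations under a fixed seed. Both were tested on simulated data. Figures were drawn with matplotlib 3.10.9.

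The platform annotation ties 13436 probe sets to 1 locus, and none of the 5 genes is among them. The 5 genes, *CRF2*, *AHP1*, *MAD1*, *MAD2*, *ATK3* and the shared histone probe set were named through the study's lists of called genes, used as a probe map only. The fold changes and false prediction values in those lists were not used. The 5 genes and the gene lists were chosen with earlier results of these data known. The name search, *MAD1*, *ATK3* and the histone were added after the files had been seen.

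Named genes are the 5 genes, members of each list that pass limma (up to 6), up to 3 others with the highest mean level, *ARR15* as a close paralog, and the 3 nearest profiles to each gene (5 for the mean). All 4 *HTB* genes, where this rule gives 3, and the neighbors AT1G19020 and AT4G34150 were named beyond it. Not every gene within the rule was described above, as the S phase genes *ICU2* and *CENH3*, with differences of 0.12 and 0.10.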

Additional observations from a re-analysis of the deposited data

How the results depend on the processing

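The 5 genes stayed higher in *fbs1-1* under all 13 alternatives run, with differences from 0.59 to 1.28. Among these were other scalings, a filter on dim probe sets, blocks and leaving out each array. Each of the 65 values moved by less than 1 SD of the replicates. The blocks, the intensity trend and the filter cannot change a gene's difference in this design, so part of the 65 values repeat the main ones. With arrays left out, the direction was fixed by the lack of overlap between genotypes in genes chosen as higher. The median of the 5 genes, 0.96, was 0.69 without WT array 1, and ranged from 0.69 to 1.01 over the arrays left out. Counts over all probe sets moved more, from 382 higher and 358 lower to 650 higher and 569 lower with the array run as a block, and to 140 to 319 higher and 142 to 338 lower without 1 array. Among the 14 pathway genes the count called higher was 1 (*AUR2*) with the array run as a block and 0 to 0 without 1 array. Counting also the genes of the first lists that only the study's lists of called genes name gave 1 lower (*AHP1*), itself chosen on this contrast. *MAD1* and *ATK3*, found in those lists later, are outside these counts. The search of the platform annotation by name, an alternative chosen after seeing the data, left both counts at 0. No called difference changed its sign, while differences near 0 that limma did not call, as that of *ARL*, did. Averaging several probe sets of a gene gave no value, because each named gene had 1, and the filter gave none for genes it removed.

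Same-numbered arrays of the 2 genotypes had correlations of deviations of 0.28, 0.09 and 0.14, against −0.23 to 0.14 for arrays of different number. The arrays numbered 1, which are also the first array run, went together most, and the numbers were not taken as pairs because 1 of the 3 values is under 0.1. With replicate number as a block, limma called 541 probe sets higher and 487 lower, and the median of the 5 genes was 0.96.

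With 3 arrays of each genotype, limma did not call *ARR7* and AT4G34160, whose spread was widest. Most cytokinin and cell cycle genes have no probe set in the annotation used, so the pathway counts rest on few genes.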
